A study of Mus musculus with 22 samples.

Results

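The IL-1 family cytokines and receptors were followed as a set of 10 listed genes through normal skin, cultured MC38 cells and MC38 tumors. All 10 were among the 46882 genes of the deposited table, and the list was taken by name, not by any measured value. The set holds the agonist ligands Il1a, Il1b, Il18 and Il33, the inhibitors Il1rn and Il18bp, the receptors Il1r1, Il1r2 and Il1rl1 and the shared receptor subunit Il1rap. RNA was read by 3′ tag sequencing (QuantSeq), in which each read comes from near the 3′ end of a transcript, and values are normalized counts per gene and library.

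MC38 is a mouse colon adenocarcinoma line, 1 line in all groups here, and was measured as cells at day 0 in 2 libraries. Cells had been injected under the skin of wild-type C57BL/6N mice or of mice labelled RAG1-/- (B6.129S7-Rag1tm1Mom/J), all 8 to 12 weeks old and, per the methods of the study, female. RAG1 is needed to assemble antigen receptors, so RAG1-/- mice lack mature T and B cells but keep myeloid and NK cells. Of tumors there were 4 groups of 3 libraries, 23 and 46 days after injection in wild-type hosts and 13 and 23 days after it in RAG1-/- hosts, and normal skin of wild-type mice came from day 23, with 2 libraries. Each tumor library held a piece of a whole excised tumor, cancer and host cells together, so that a change in the number of cells of a type and a change in RNA per cell cannot be told apart.

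The IL-1 family works as 3 linked ligand and receptor systems. IL-1α and IL-1β bind the receptor encoded by Il1r1 together with the accessory chain IL-1RAcP, encoded by Il1rap, and signal through MyD88 and IRAK kinases to NF-κB. IL-1Ra, the product of Il1rn, occupies the receptor without signaling, and IL-1R2 is a decoy that binds ligand without a signaling domain. IL-18, matured by caspase-1 in inflammasomes, acts on T and NK cells to raise interferon-γ and is captured by IL-18BP, a secreted binding protein that interferon-γ induces. IL-33 is a nuclear alarmin of epithelial and stromal cells, and ST2, encoded by Il1rl1, is its receptor, made in a membrane and a soluble form.

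Libraries held 5589151 to 26134241 reads on genes, and 3 reads, taken as the floor, were worth 1.33 to 6.38 normalized counts. T cell markers (9 genes) summed to 42.0 to 258 normalized counts in the 6 wild-type tumors and to 6.67 to 40.0 in the 6 tumors labelled RAG1-/-, with Cd3e, Cd3g and Cd8b1 at 0 in the latter. Rag1 itself had 1 to 12 reads in each tumor labelled RAG1-/- and 0 or 1 in all other libraries. Reads at the 3′ end check the label only if that end lies in the deleted part. Which part is deleted is not given in the sources used here, so these reads do not decide on the label. Macrophage and monocyte markers (13 genes) summed to 11386 to 24240 in tumors and to 164 and 181 in MC38 cells, where Adgre1, Ly6c2, Ccr2, Fcgr1 and Mrc1 were at 0. Epithelial carcinoma markers (8 genes) summed to only 4.28 and 7.82 in MC38 cells, with Krt18, Krt19, Cldn7 and Cdx2 at 0, so the epithelial label of the line was not borne out by these markers. Apart from the rest stood wild-type day 23 replicate 2 in its keratinocyte sum (2293), RAG1-/- day 13 replicates 1 and 3 in skeletal muscle sums (8137 and 8424) and skin replicate 2 in its neutrophil sum (14809 against 2242 in replicate 1).

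The genes lie in a few clusters of the mouse genome (GENCODE on GRCm38). Il1r2 (chromosome 1, 40074079 to 40125231, plus strand), Il1r1 (40225080 to 40317257) and Il1rl1 (40429570 to 40465415) follow each other on 1 strand, and the Il18r1 gene starts 136 bases past the end of Il1rl1. Il1a (129299610 to 129309972) and Il1b (129364570 to 129371139) are neighbours on the minus strand of chromosome 2, with 54597 bases between them, and Il1rn (24336853 to 24351494, plus strand) is far off on the same chromosome. Il18bp (102014885 to 102018690, minus strand) is on chromosome 7, Il18 (50554827 to 50581840) on chromosome 9, Il1rap (26581704 to 26730117) on chromosome 16 and Il33 (29925114 to 29960718) on chromosome 19, the last 3 on the plus strand. Exons of 4 members overlap genes of the opposite strand. Within the last 500 exonic bases, where these reads fall, the antisense gene Gm20319 covers 39.8% of Il1rap and Numa1 covers 16% of Il18bp, while the antisense partners of Il1a and Il1b lie outside. The strand setting of the counting is not given in the sources used here, so reads of Il1rap and Il18bp and of those partners may not have been kept apart.

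The promoters (RefSeq, GRCm38.p6, from 250 bases before to 50 after a start) of the genes the results turn on are printed 5′ to 3′ on the gene's own strand. They are the ligands Il1a, Il1b and Il33, low in MC38 cells and higher in tumors, and Il18bp, the inhibitor called between hosts over both days. Both annotated starts of Il1rl1, whose reads a 3′ count adds up, are given too. The ligand Il18, also low in MC38 cells and higher in tumors, and the upstream start of Il33 are not printed. Capitals mark matches, on either strand, to TATAAA (the TATA box), to TGANTCA (AP-1), to GAAA repeated after any 2 bases (a core of the interferon response element) or to GGGA and CC with any 4 bases between (a κB-like site).
Il1a, chr2:129309923-129310222, - strand: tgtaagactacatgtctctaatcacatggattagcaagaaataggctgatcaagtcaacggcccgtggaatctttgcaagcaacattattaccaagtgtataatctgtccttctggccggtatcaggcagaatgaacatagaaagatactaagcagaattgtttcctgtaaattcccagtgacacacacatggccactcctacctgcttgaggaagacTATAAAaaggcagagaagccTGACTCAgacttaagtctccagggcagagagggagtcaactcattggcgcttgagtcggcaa
Il1b, chr2:129371090-129371389, - strand: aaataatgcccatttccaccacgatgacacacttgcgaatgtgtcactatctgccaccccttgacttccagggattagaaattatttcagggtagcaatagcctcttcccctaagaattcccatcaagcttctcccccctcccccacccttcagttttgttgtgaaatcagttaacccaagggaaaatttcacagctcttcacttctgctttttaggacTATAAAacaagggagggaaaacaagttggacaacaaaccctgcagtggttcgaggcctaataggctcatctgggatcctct
Il33, the downstream start, chr19:29945540-29945839, + strand: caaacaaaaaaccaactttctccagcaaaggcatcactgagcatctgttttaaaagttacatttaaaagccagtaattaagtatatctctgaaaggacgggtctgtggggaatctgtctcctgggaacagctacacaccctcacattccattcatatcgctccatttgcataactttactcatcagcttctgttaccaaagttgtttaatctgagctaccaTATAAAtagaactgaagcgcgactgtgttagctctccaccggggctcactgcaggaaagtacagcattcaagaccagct
Il18bp, chr7:102018183-102018482, - strand: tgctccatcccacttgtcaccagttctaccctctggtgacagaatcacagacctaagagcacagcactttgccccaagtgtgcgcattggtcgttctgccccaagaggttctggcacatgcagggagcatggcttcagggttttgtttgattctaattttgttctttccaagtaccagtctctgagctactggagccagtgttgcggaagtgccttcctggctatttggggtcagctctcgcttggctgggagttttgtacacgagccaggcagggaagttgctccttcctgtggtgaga
Il1rl1, the upstream start, chr1:40429320-40429619, + strand: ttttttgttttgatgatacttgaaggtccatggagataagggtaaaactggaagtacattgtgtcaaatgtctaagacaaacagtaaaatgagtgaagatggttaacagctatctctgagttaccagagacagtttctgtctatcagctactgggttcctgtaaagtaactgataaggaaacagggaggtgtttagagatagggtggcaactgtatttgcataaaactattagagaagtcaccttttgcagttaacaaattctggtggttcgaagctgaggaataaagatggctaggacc
Il1rl1, the downstream start, chr1:40439379-40439678, + strand: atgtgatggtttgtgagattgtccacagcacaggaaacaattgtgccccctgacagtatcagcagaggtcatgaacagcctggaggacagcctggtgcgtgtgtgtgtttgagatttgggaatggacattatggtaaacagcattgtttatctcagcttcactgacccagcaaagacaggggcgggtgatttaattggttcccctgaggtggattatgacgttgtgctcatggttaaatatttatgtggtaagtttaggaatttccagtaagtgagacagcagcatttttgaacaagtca
All 10 members had an entry, with 15 promoters in all. TATAAA began 32 bases before the start in Il1a, 31 in Il1b and 29 at the downstream start of Il33. Its other matches began 175 bases before the start of Il18, 203 before the upstream start of Il33 and at base 15 counted from a start of Il1rn. In all 6 of the 15 promoters held it, beside 13.6% of 32851 mouse promoters. This motif was added after the promoters were seen, so these shares are a description and not a test. TGANTCA stood 12 bases before the start of Il1a and also at 1 start of Il1rn, and 7.81% of all promoters held it. None of the letters searched for lay in the printed windows of Il18bp and Il1rl1. The interferon response core was found in the promoter of Il1rap alone, against 3.44% of all promoters, and the κB-like site in those of Il1rn and Il1rap, against 20.7%.

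Skin and MC38 cells expressed different parts of the family, sharing Il1rap, and tumors held both. Skin carried high Il18, Il1rn, Il1r2 and Il33, whereas MC38 cells carried Il1rl1 and Il1rap and had few or no reads of the other members. In MC38 tumors of either host, Il1b and Il1rn were present beside Il1rl1. All 10 members had a mean of 5 or more in every fit and so passed its low-value filter. In MC38 cells Il1a, Il1b, Il1rn, Il1r1 and Il1r2 had means under 5, so they passed it through the other libraries alone. That favours their direction against MC38 cells and weighs on the member counts of those comparisons. With limma and Benjamini-Hochberg adjustment over all genes tested, MC38 cells against skin gave 1 member higher and 8 lower, where 62% of all tested genes were called, 20.8% higher and 41.2% lower. The lower members included Il1rn (333-fold), Il18 (192-fold) and Il33 (74.6-fold), with Il18bp lower by less (log2 difference -2.47). Leaving out either skin library ended the calls of Il1a, Il1b, Il18bp and Il1r1 and left 5. Wild-type tumors against skin gave 3 members higher and 6 lower, where 57% of all tested genes were called, 22.8% higher and 34.2% lower. Against MC38 cells, 8 members were higher in wild-type tumors, where 27.9% of all tested genes were called, 18.3% higher. Tumors labelled RAG1-/- against the same MC38 libraries gave 8 members higher, where 23.3% were called, 15.8% higher. The hosts, with both days of each, differed in 1 member, Il18bp, where 0.712% of all tested genes were called (0.753% by edgeR and 1.92% by DESeq2). The days differed, 23 and 46 in wild-type hosts and 13 and 23 in hosts labelled RAG1-/-. Host and day after injection thus cannot be fully told apart in this comparison. At day 23 alone limma called no member.

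**Figure D1:**
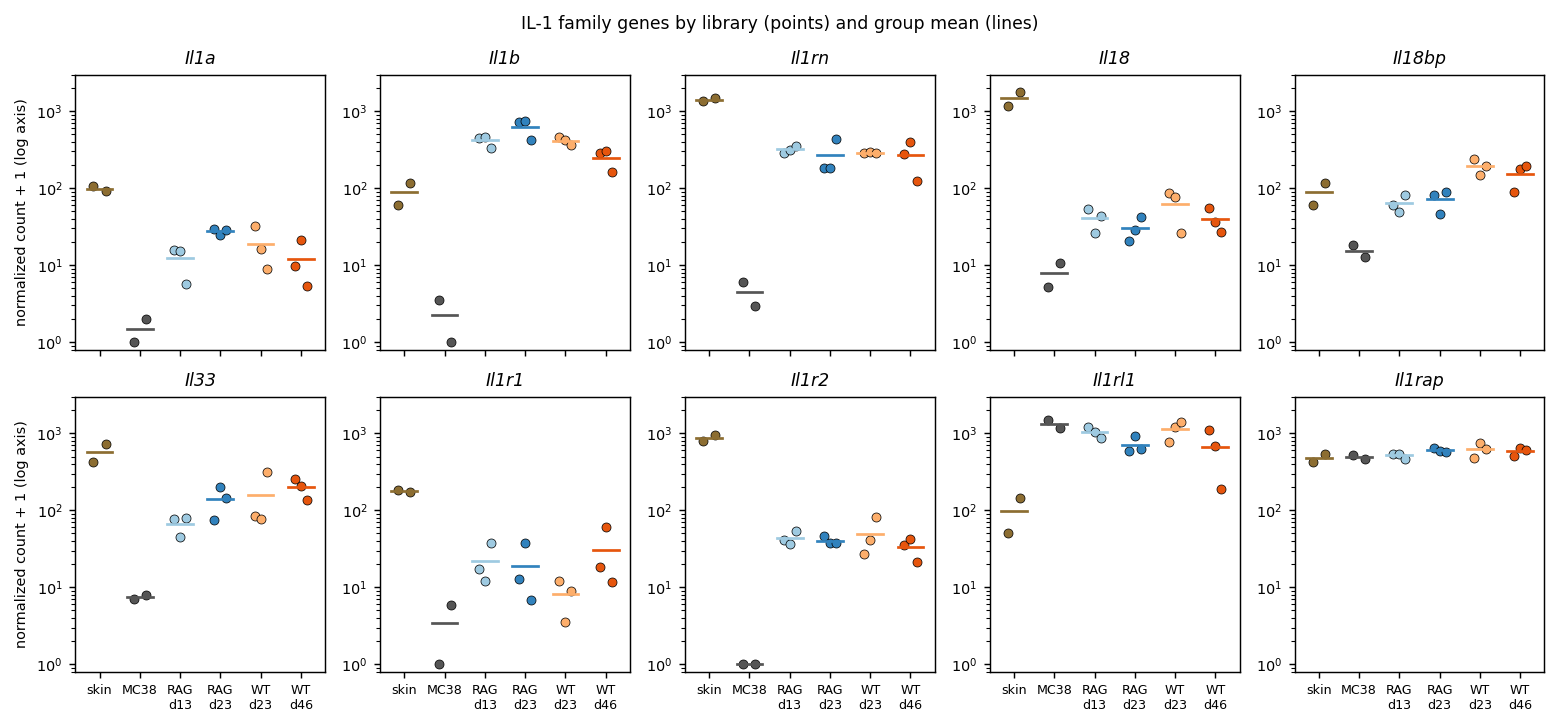
Normalized count plus 1 of each member on a log axis, by group (RAG, tumors labelled RAG1-/-; WT, wild-type tumors; d, day), with a point per library and a line at the group mean. Il1rl1 is high in MC38 cells and low in skin, Il1rap has the narrowest range, and the other 8 members have their lowest mean in MC38 cells.

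Il1b, the gene of the secreted IL-1β, was a gene of the tumors. In MC38 cells it had 3 reads in 1 library and 0 in the other (2.57 and 0 normalized counts), and in skin 60.3 and 116. It stood at 455, 461 and 332 in tumors labelled RAG1-/- at day 13, at 721, 743 and 418 in those of day 23, at 464, 420 and 360 in wild-type tumors at day 23 and at 285, 300.1 and 163 at day 46. Every tumor lay above both skin libraries, and every skin library above both MC38 libraries. Pooled reads gave a ratio of 236 of wild-type tumors to MC38 cells (exact 95% counting interval 80.7 to 1146, which covers counting error only) and of 347 for tumors labelled RAG1-/- (119 to 1685). The fitted log2 changes against MC38 cells were 7.39 (SE 0.37, limma adjusted p = 3.02e-11) and 8.05 (SE 0.37, adjusted p = 9.23e-12), on the log2(normalized count + 1) scale. Against skin, wild-type tumors were higher by 1.90 (SE 0.30, limma adjusted p = 9.13e-05).

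Il1b was also the member with the largest deficit in wild-type hosts among those not called. This holds over both days of each host, so host and day after injection are mixed in it. Wild-type tumors had a mean of 332 ± 107 (SD, n = 6) and those labelled RAG1-/- one of 522 ± 169 (SD, n = 6), and the groups overlapped. The log2 difference was -0.66 (SE 0.19), with a limma adjusted p of 0.151 and an unadjusted exact permutation p of 0.0476. DESeq2 on the recovered reads gave an adjusted p of 0.0309 and edgeR one of 0.151, and leaving out RAG1-/- day 23 replicate 3 gave 0.0404 with limma. Within day 23 alone the difference was -0.56 (SE 0.26, limma adjusted p = 0.449). Of the markers of cells that make IL-1β, the macrophage and monocyte sum ranged from 14372 to 24240 in wild-type tumors and from 11386 to 18644 in tumors labelled RAG1-/-, and the neutrophil sum from 356 to 999 and from 413 to 1834. The part of these cells in the Il1b values was not tested.

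Il1a, the gene of the membrane and nuclear IL-1α, stayed low in tumors. MC38 cells had 0 and 0.978 normalized counts (1 read in all), skin 104 and 90.5, and the 12 tumors from 4.39 to 30.98 with a median of 15.2, so the 3 kinds of sample did not overlap. Pooled reads gave a ratio of 33.5 of wild-type tumors to MC38 cells (exact 95% counting interval 5.89 to 1334) and of 213 of skin to MC38 cells (37.7 to 8481). Wild-type tumors lay below skin by -2.90 on the log2 scale (SE 0.60, limma adjusted p = 0.000839). Within tumors labelled RAG1-/-, Il1a was at 14.98, 14.5 and 4.76 at day 13 and at 28.8, 23.4 and 27.8 at day 23. These groups did not overlap, as was the case for 19.4% of all tested genes, and the change of 1.29 (SE 0.63) did not pass the test (limma adjusted p = 0.442, exact permutation p = 0.1, the smallest possible with 3 against 3).

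Il1rn, the gene of the receptor antagonist, was the counterpart of Il1b in skin. It stood at 1350 and 1484 normalized counts in skin, at 5.13 and 1.96 in MC38 cells and at 124 to 432 in the 12 tumors, with a median of 288. Skin was above every tumor, and every tumor above MC38 cells. Tumors exceeded MC38 cells by 5.95 (SE 0.39, limma adjusted p = 1.24e-09) in wild-type hosts and 6.04 (SE 0.39, adjusted p = 1.14e-09) in hosts labelled RAG1-/-, and wild-type tumors were below skin by -2.43 (SE 0.37, adjusted p = 6.57e-05). The hosts differed by -0.08 (SE 0.26, adjusted p = 0.94). The ratio of Il1b to Il1rn reads within a library, which needs no scaling between libraries, was 0.0446 and 0.0782 in skin. In tumors it was 0.948 to 1.57 at RAG1-/- day 13, 0.966 to 4.06 at RAG1-/- day 23, 1.28 to 1.62 at wild-type day 23 and 0.746 to 1.31 at wild-type day 46. Ratios of different genes on 3′ reads compare samples, not the amounts of the proteins.

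Il18, the gene of the cytokine itself, was far higher in skin than in tumors. It stood at 1175 and 1782 normalized counts in skin, at 4.28 and 9.78 in MC38 cells and at 19.6 to 84.8 in the 12 tumors, with a median of 37.8. Wild-type tumors were below skin by -4.98 on the log2 scale (SE 0.48, limma adjusted p = 7.58e-07), and above MC38 cells by 2.61 (SE 0.50, adjusted p = 0.000653). Tumors labelled RAG1-/- were above MC38 cells by 2.17 (SE 0.50, adjusted p = 0.00369), a call that leaving out MC38 replicate 1 ended (adjusted p = 0.114). Wild-type tumors and tumors labelled RAG1-/- overlapped, with means of 50.3 ± 25.7 (SD, n = 6) and 34.6 ± 12.3 (SD, n = 6) and a limma adjusted p of 0.668.

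Il18bp, the gene of the secreted inhibitor of IL-18, was the member called between hosts over both days of each. The hosts differ in days there, so host and day after injection cannot be fully told apart. Its normalized counts were 236, 149 and 193 in wild-type tumors at day 23 and 88.9, 177 and 195 at day 46. In tumors labelled RAG1-/- they were 59.9, 47.8 and 80.0 at day 13 and 81.2, 44.7 and 88.8 at day 23. The 6 wild-type tumors lay above the 6 others, as was the case in this direction for 0.651% of all tested genes, but the lowest of them, day 46 replicate 1, exceeded the highest of the others by less than 1 normalized count. The log2 difference was 1.34 (SE 0.25), or 2.54-fold, with a limma adjusted p of 0.0162 and an unadjusted exact permutation p of 0.00216, the smallest possible with 6 against 6. edgeR gave an adjusted p of 0.0169 and DESeq2 one of 2.28e-05. The call is close to the threshold. It was lost without the mean-dependent trend of the spread (adjusted p = 0.073) and without RAG1-/- day 13 replicate 2 (0.0501), wild-type day 23 replicate 1 (0.0544), wild-type day 23 replicate 3 (0.0516) or wild-type day 46 replicate 2 (0.0522), with log2 differences of 1.26 to 1.34. At day 23 alone the difference was 1.45 (SE 0.35), with an adjusted p of 0.108 by limma, 0.129 by edgeR and 0.0111 by DESeq2. There 0.278% of all tested genes were called by limma, with no member among them, 0.149% by edgeR and 1.62% by DESeq2.

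Of 14745 genes compared, those with the highest Pearson correlation to Il18bp over the 12 tumors were Cd3d (r = 0.938), Trbc2 (0.934) and Cd8a (0.932), all genes of the T cell receptor complex or its CD8 co-receptor. The 12 points share the host difference, and the genes were picked for their r over these same tumors. Over the 6 wild-type tumors alone r was 0.971 for Cd3d, 0.934 for Trbc2 and 0.906 for Cd8a. Over the 6 tumors labelled RAG1-/- it was 0.353, 0.653 and 0.527, where Cd3d reached no more than 2.86 normalized counts and Cd8a no more than 0.442. Wild-type day 46 replicate 1, the wild-type tumor with the least Il18bp, also had the lowest T cell sum of its host (42.0), close to the 40.0 of RAG1-/- day 13 replicate 3. Cd8a itself was higher in wild-type tumors by 4.55 (SE 0.54, limma adjusted p = 0.000583). Of the 7 T cell markers tested 5 were called, where 0.712% of all tested genes were called. Cd8a and Cd3d, under 5 in every tumor labelled RAG1-/-, passed the low-value filter through wild-type tumors alone. That set their direction and weighs on this count. The part of T cells in the Il18bp level was not tested. In tumors labelled RAG1-/- Il18bp exceeded MC38 cells (17.1 and 11.7) by 2.12 (SE 0.35, adjusted p = 0.000204), and in wild-type tumors by 3.46 (SE 0.35, adjusted p = 5.42e-07).

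**Figure D2:**
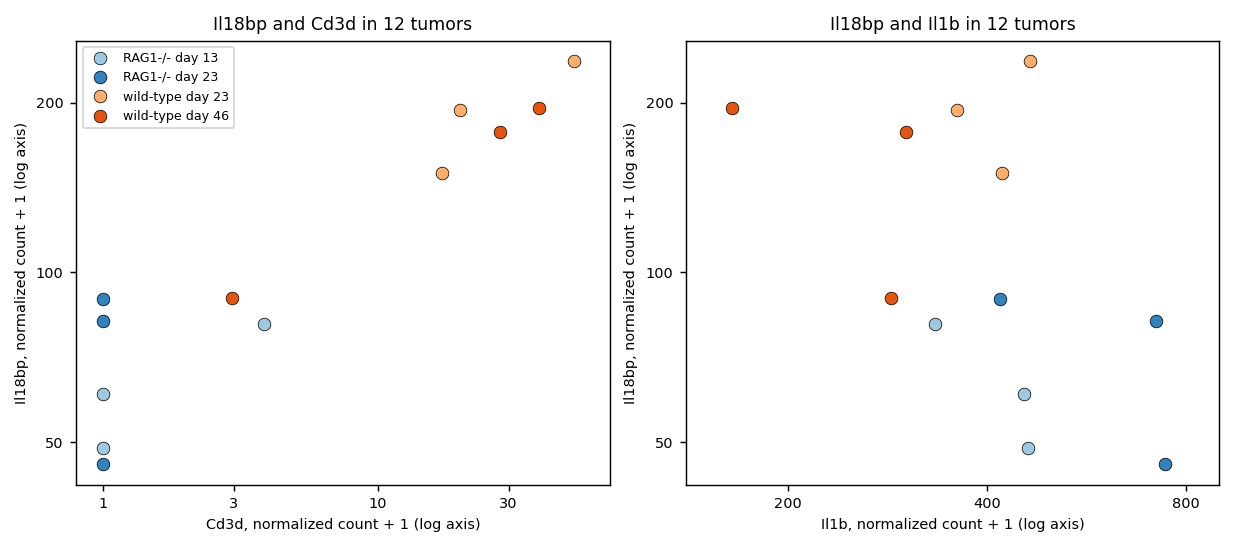
Il18bp against the T cell receptor gene Cd3d (left) and against Il1b (right) in the 12 tumors, as normalized count plus 1 on log axes, with a point per tumor colored by group. Wild-type tumors lie above 88.9 in Il18bp, and Pearson r with Cd3d is 0.971 over them and 0.353 over the tumors labelled RAG1-/-.

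Skin held 60.3 and 115 normalized counts of Il18bp, within the range of the tumors. The ratio of Il18 to Il18bp reads was 15.5 and 19.5 in skin and 0.131 to 0.875 in the 12 tumors, with no overlap. In wild-type tumors the ratio was 0.131 to 0.615 and in tumors labelled RAG1-/- 0.242 to 0.875. Wild-type tumors exceeded skin in Il18bp by 0.99 (SE 0.38, limma adjusted p = 0.0395), but this ended with no filter on low values (adjusted p = 0.0509) and without skin replicate 1 (0.53, adjusted p = 0.406). It also ended without wild-type day 23 replicate 1 (0.0712), day 23 replicate 3 (0.0582), day 46 replicate 2 (0.0712) or day 46 replicate 3 (0.069).

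Il33 and its receptor gene Il1rl1 ran opposite ways between skin and MC38 cells. Il33, the alarmin gene, was at 418 and 728 normalized counts in skin, 5.99 and 6.84 in MC38 cells and 44.5 to 315 in tumors. Wild-type tumors had 82.6, 75.02 and 315 at day 23 and 254, 206 and 136 at day 46, and tumors labelled RAG1-/- 75.9, 44.5 and 78.1 at day 13 and 73.3, 198 and 145 at day 23. Each group of day 23 held a tumor far above its lowest. Il33 was called in none of the comparisons of tumor groups that were tested, which do not include every pair of groups. Tumors exceeded MC38 cells by 4.40 (SE 0.48, limma adjusted p = 1.11e-06) in wild-type hosts and by 3.63 (SE 0.48, adjusted p = 1.36e-05) in hosts labelled RAG1-/-. Wild-type tumors were below skin by -1.82 (SE 0.51, adjusted p = 0.00707), which leaving out skin replicate 2 ended (adjusted p = 0.14). The host difference of 0.77 (SE 0.34) had an adjusted p of 0.413 over both days.

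Il1rl1, the ST2 gene, was the member higher in the cell line than in skin. It stood at 1478 and 1156 normalized counts in MC38 cells and at 49.6 and 145 in skin, a log2 difference of 3.93 (SE 0.53, limma adjusted p = 0.00268). With 2 against 2 libraries an exact permutation test cannot go below 0.333. Tumors held 1211, 1033 and 867 at RAG1-/- day 13, 587, 923 and 632 at RAG1-/- day 23, 766, 1199 and 1410 at wild-type day 23 and 1100, 687 and 186 at wild-type day 46. All 12 tumors were above both skin libraries, and 1 tumor, wild-type day 46 replicate 3, was far below the others. Against MC38 cells the differences were -0.79 (SE 0.43, adjusted p = 0.186) in wild-type tumors and -0.62 (SE 0.43, adjusted p = 0.328) in tumors labelled RAG1-/-. The first was called when wild-type day 46 replicate 1 was left out (-1.06, adjusted p = 0.0315). The second was called with only the groups compared in the fit (adjusted p = 0.0235). Wild-type tumors exceeded skin by 3.13 (SE 0.52, adjusted p = 0.000143). The deposited count adds both starts and the soluble and membrane forms of ST2.

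The ratio of Il1rl1 to Il33 reads set the 3 kinds of sample apart without overlap. It was 169 and 247 in MC38 cells, 1.37 to 23.2 in the 12 tumors and 0.119 and 0.2 in skin. Within hosts the later tumors had the lower values, at 11.1 to 23.2 at RAG1-/- day 13 against 4.35 to 8 at day 23 and at 4.47 to 15.99 at wild-type day 23 against 1.37 to 4.33 at day 46. The ratios of both time points did not overlap in either host. Of all single genes tested, 19.4% did not overlap between days in hosts labelled RAG1-/- and 12.5% in wild-type hosts. The ratios were looked at after the values were seen and were not tested.

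**Figure D3:**
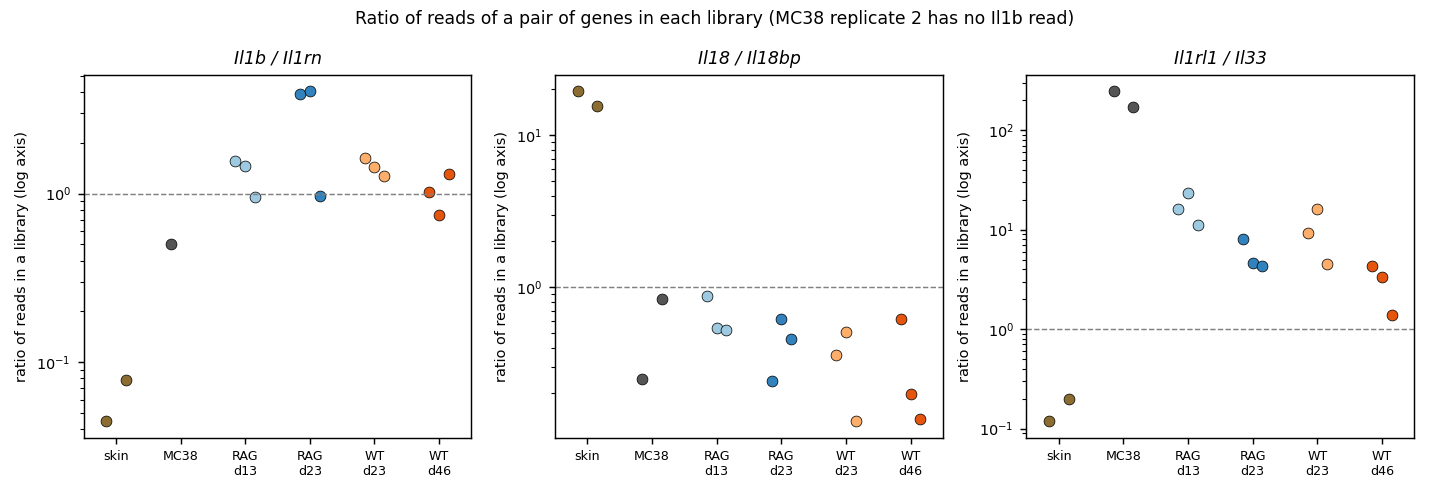
Reads of Il1b over Il1rn, Il18 over Il18bp and Il1rl1 over Il33 in each library, on log axes with a dashed line at equal reads, by group (RAG, tumors labelled RAG1-/-; WT, wild-type tumors; d, day). Skin has the lowest Il1b to Il1rn, the highest Il18 to Il18bp and the lowest Il1rl1 to Il33 ratios.

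Il1r1 and Il1r2, the signaling and the decoy receptor of IL-1, were genes of skin. Il1r1 was at 181 and 171 normalized counts in skin, at 0 and 4.89 in MC38 cells and at 2.56 to 59.8 in tumors, with a median of 11.5. Wild-type tumors were below skin by -3.75 on the log2 scale (SE 0.74, limma adjusted p = 0.000588). Against MC38 cells the call was weak, at 2.43 (SE 0.82, adjusted p = 0.0354) in wild-type tumors and 2.81 (SE 0.82, adjusted p = 0.0189) in tumors labelled RAG1-/-. edgeR did not call either (adjusted p = 0.106 and 0.0776), and without MC38 replicate 1 the adjusted p was 0.511 and 0.382. The call in wild-type tumors was also lost without wild-type day 23 replicate 1 (0.0646), day 23 replicate 3 (0.0571) or day 46 replicate 2 (0.0716). In wild-type tumors Il1r1 was at 11.1, 2.56 and 7.92 at day 23 and at 17.6, 59.8 and 10.7 at day 46, values at or near the floor of 3 reads in places (adjusted p = 0.563).

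Il1r2 had 0 reads in both MC38 libraries. Skin had 806 and 954 normalized counts and the 12 tumors 20.1 to 80.8, with a median of 38.1. Against the mean floor of 3 reads in each MC38 library, skin was at least 320-fold and the tumors at least 14.8-fold higher. The means of the tumors were 40.4 ± 21.4 (SD, n = 6) in wild-type hosts and 41.1 ± 6.76 (SD, n = 6) in hosts labelled RAG1-/-, and differed by -0.15 (SE 0.30, adjusted p = 0.901). Wild-type tumors were below skin by -4.54 (SE 0.40, adjusted p = 3.59e-07). Reads of Il1r1 over Il1r2 in a library were 0.179 and 0.224 in skin and 0.0638 to 1.43 in tumors, so the tumors overlapped skin here.

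Il1rap, the gene of the chain that the receptors of IL-1 and IL-33 share, had the narrowest range of the 10. It was at 427 and 541 normalized counts in skin, at 524 and 459 in MC38 cells and at 469.7 to 754 in the 12 tumors. The groups overlapped in 7 of the 8 comparisons of samples. In the eighth, tumors labelled RAG1-/- at day 23 (648, 581 and 569) all lay above those of day 13 (546, 530 and 469.7), as 19.4% of all tested genes did not overlap here, with a log2 difference of 0.22 (SE 0.18, limma adjusted p = 0.677). MC38 cells and skin differed by 0.03 (SE 0.19, adjusted p = 0.9). The difference of 0.31 (SE 0.18) between wild-type tumors and skin had an adjusted p of 0.146 by limma, 0.0421 by edgeR and 0.0419 by limma without wild-type day 23 replicate 1, and it was called when libraries were rescaled to the same total (0.71, adjusted p = 0.00259) or upper quartile (0.77, adjusted p = 0.00233). Under these scalings the median of all genes moved from -0.18 to 0.23 and 0.29.

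**Figure D4:**
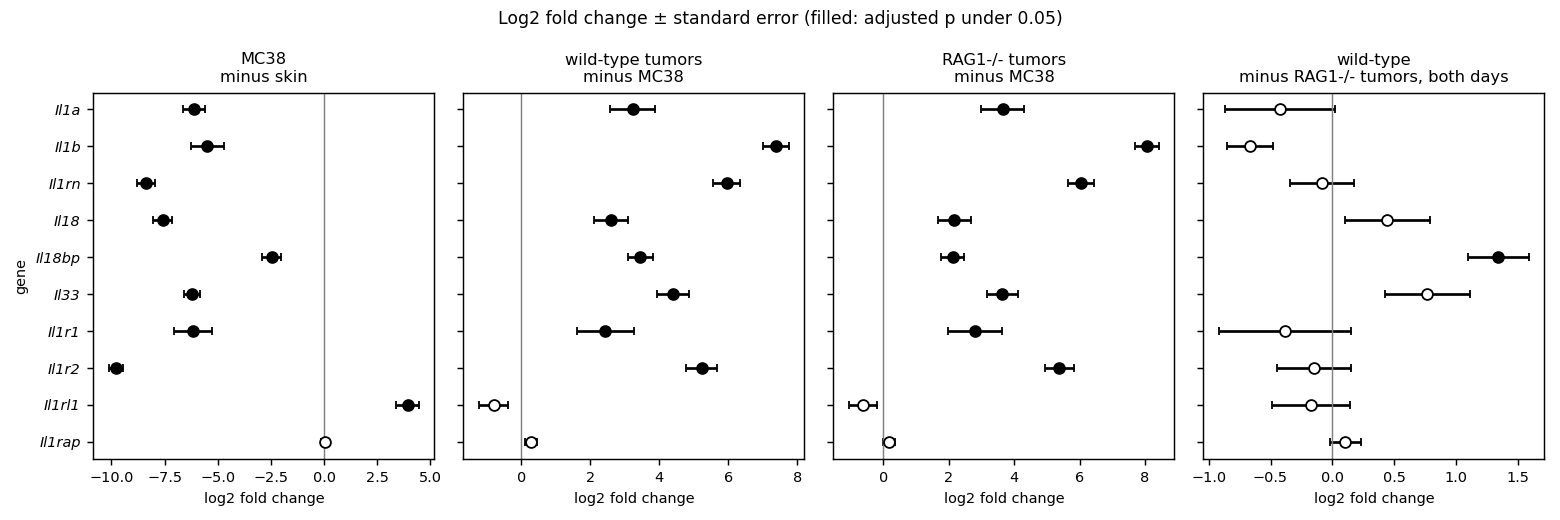
Log2 fold change on the log2(normalized count + 1) scale of each member in 4 comparisons, with the standard error as a bar. Filled points have an adjusted p under 0.05 (limma). Il1rl1 is the member higher in MC38 cells than in skin, and 8 members are higher in tumors of either host than in MC38 cells. Il18bp is the member called between hosts over both days of each, which are not the same days.

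No member passed the test for time within a host. Wild-type tumors of day 46 against day 23 and tumors labelled RAG1-/- of day 23 against day 13 gave 0 called members and 0 called genes by limma and by edgeR, with 1261 and 1722 genes at an unadjusted p under 0.05 and 41 (0.278%) and 206 (1.4%) called by DESeq2, none of them a member. The largest member changes that did not overlap between days were Il1b in wild-type tumors, at -0.77 (SE 0.26, limma adjusted p = 0.444, where 12.5% of all tested genes did not overlap), and Il1a in tumors labelled RAG1-/-, given above. For Il1b the later tumors were lower in wild-type hosts, while in hosts labelled RAG1-/- the change was 0.56 (SE 0.26, adjusted p = 0.426). The test of the difference of these changes, -1.33 (SE 0.37), had an adjusted p of 0.395 by limma, 0.303 by edgeR and 0.0775 by DESeq2. No gene was called for that difference by limma or edgeR, with 1279 at an unadjusted p under 0.05 and 58 (0.393%) called by DESeq2.

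Genes most like each member over the 12 tumors are given as a description, since the tumors share groups, depth and tissue admixture. For Il1b they were Pole2 (r = 0.955), Mblac2 (0.917) and Gm15473 (0.904), and for Il1rl1 Eef1b2 (0.954), Larp1b (0.952) and Rps27rt (0.943). Il1r1 went with Ednra, the endothelin receptor gene of smooth muscle and stroma (r = 0.925), with Adgre5 (0.915) and with the eotaxin gene Ccl11 (0.899). Il1r2 went with the heat shock genes Dnajb1 (0.921) and Hspa1b (0.909) and with Ahr (0.892), and Il18 with Anpep (0.934), Fbxw2 (0.884) and Trpv2 (0.881). For Il1rn they were Gm14011 (0.892), Mfng (0.857) and Rps27-ps1 (0.848), for Il33 Faap20 (0.887), Upk1a (0.885) and Rab2a (0.874), for Il1a Mterf4 (0.818), Gm10419 (0.794) and Sav1 (0.789) and for Il1rap Actg1 (0.921), Echs1 (0.877) and Rad18 (0.877). Among the members themselves, Il1a and Il1b had r = 0.736 and Il1b and Il18bp r = -0.54.

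Most of the further family genes were higher in skin. Of 11 further ligand and receptor genes in the table, 9 were tested in MC38 cells against skin. Of these 7 were lower and none higher, where 41.2% of all tested genes were lower and 20.8% higher. The median log2 change was -8.22 beside -0.40 over all genes. Il1f5, Il1f8, Il1f9 and Il1f10 were at 0 in MC38 cells, and Il1f6, Il1rl2 and Il18r1 had at most 1 read in a library there. All of these passed the low-value filter through skin alone. That set their direction and weighs on the count and the median. The IL-36 genes, epidermal cytokines listed under older symbols, were high in skin, with Il1f5 (the IL-36 receptor antagonist) at 2067 and 2537 normalized counts, Il1f6 at 571 and 616 and Il1f8 at 502 and 520. In MC38 cells none exceeded 0.978 and in tumors none of these 3 exceeded 9.38. Il1rl2, the IL-36 receptor gene, was higher in wild-type tumors (4.75 to 28.9) than in MC38 cells (0 and 0.978) by 3.35 (SE 0.63, limma adjusted p = 0.000557). The IL-18 receptor genes were low in tumors, with Il18r1 at 1.70 to 9.40 in wild-type tumors and 0 to 7.49 in tumors labelled RAG1-/-, and Il18rap at 10.05 to 30.1 and 2.62 to 10.7.

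Inflammasome genes serve the processing of IL-1β and IL-18. Of 13 tested, 9 were higher in wild-type tumors than in MC38 cells and 8 in tumors labelled RAG1-/-, with none lower. Of all tested genes 18.3% and 15.8% were higher. The medians were 2.60 and 2.01 beside 0.05 and 0.06 over all genes. Pycard and Nlrc4 were at 0 in MC38 cells, and Nlrp3 and Mefv had at most 1 read in a library there. All of these passed the low-value filter through tumors alone. That set their direction and weighs on these counts and medians. Pycard, the adaptor ASC, had 0 reads in MC38 cells, 201 to 443 normalized counts in wild-type tumors and 208 to 391 in tumors labelled RAG1-/-, at least 114-fold more over all tumors. The sensor gene Nlrp3 was at 33.2 to 102 in wild-type tumors and at 0.856 and 0.978 in MC38 cells (4.85, SE 0.38, limma adjusted p = 1.3e-08), and Casp4 rose by 2.60 (SE 0.23, adjusted p = 5.97e-08). Against skin, Pycard was lower in wild-type tumors (-3.22, SE 0.29, adjusted p = 4.64e-07) and Nlrp3 higher (2.88, SE 0.42, adjusted p = 4.86e-05).

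Genes that IL-1 induces moved both ways. Of 17 tested in wild-type tumors against MC38 cells, 8 were higher and 3 lower, with a median of 0.88 beside 0.05 over all genes. Of all tested genes 27.9% were called, 18.3% higher. Cxcl2 and Saa3, at 0 in MC38 cells, passed the low-value filter through tumors alone. That set their direction and weighs on the counts and the median. Mmp13, a collagenase gene (7.67, SE 0.43, limma adjusted p = 1.27e-10), Icam1, an adhesion molecule gene (5.01, SE 0.40, adjusted p = 2.03e-08), and Cxcl2, a neutrophil chemokine gene at 0 in MC38 cells and 14.3 to 73.9 in wild-type tumors, were higher. Cxcl1, another neutrophil chemokine gene (-1.67, SE 0.32, adjusted p = 0.000593), Ptgs2, the cyclooxygenase-2 gene (-2.01, SE 0.43, adjusted p = 0.00195), and Ereg (-1.71, SE 0.42, adjusted p = 0.00491) were lower. Ptgs2 was at 4909 and 5579 in MC38 cells, at 531 to 2396 in wild-type tumors and at 9.38 and 524 in skin. The part of IL-1 in these levels, and that of host cells in the tumor values, was not tested. In tumors labelled RAG1-/- 7 were higher and 3 lower, where 23.3% of all tested genes were called, 15.8% higher.

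Of 19 receptor-proximal signaling genes tested in wild-type tumors against MC38 cells, 4 were higher and 2 lower, with a median of 0.21, a share near the 27.9% called over all tested genes. Irak3, the gene of an inhibitory IRAK, was at 0 in MC38 cells and at 5.11 to 93.3 in wild-type tumors, at least 11.1-fold higher by the mean, while Ikbkg, the NEMO gene, was lower by -1.43 (SE 0.21, limma adjusted p = 3.49e-05). Of 4 tested genes downstream of IL-18 or IL-33, Il2ra was higher (4.46, SE 0.79, adjusted p = 0.000296) and Gata3 (-1.14, SE 0.31, adjusted p = 0.0109) and Areg (-2.57, SE 0.91, adjusted p = 0.0444) lower. The share called over all tested genes was 27.9%. Irak3 and Il2ra, at 0 in MC38 cells, passed the low-value filter through tumors alone, which set their direction. Between hosts, 0 of 57 tested genes of these 5 lists were called over both days by limma, and 0 by edgeR and by DESeq2, with 8 at an unadjusted p under 0.05 by limma. Ifng, the interferon-γ gene, was at 1.26 to 22.9 in wild-type tumors and at 0 to 5.24 in tumors labelled RAG1-/-, a log2 difference of 2.23 (SE 0.69, limma adjusted p = 0.202).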

How the data were processed

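RNA of 16 libraries (2 skin, 2 MC38, 12 tumors) was read by QuantSeq 3′ sequencing on an Ion Proton. Per the study's methods, the authors trimmed reads with Cutadapt and Trimmomatic, removing those under 22 nt, aligned them to mm10 with STAR and the unmapped rest with Bowtie2, removed rRNA, counted genes with HTSeq-count and divided counts by DESeq2 size factors. Tool versions, strand setting and annotation are not given in the sources used here. The deposited values are thus a normalized signal, not raw counts. Whole reads were recovered for 100% of values (tolerance 0.0001).

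The main test was limma 3.58.1 with a mean-dependent trend, in R 4.3.3, on log2(normalized count + 1), leaving out genes whose mean over the libraries fitted was under 5, two-sided, with Benjamini-Hochberg adjustment over all genes and a threshold of 0.05. Comparisons among tumors used the 12 tumors, those with MC38 cells or skin added these libraries, and MC38 against skin used 4. A gene near 0 in a group could pass the filter through the other libraries alone, which favours a direction in counts over a list. edgeR 4.0.16 and DESeq2 1.42.0 on recovered reads were alternatives, beside pseudocounts of 0.1 and 5, other filters and scalings, and leaving out each library. The fits were tested on simulated data. Permutation tests were exact and two-sided. The labels do not say that replicates are separate animals or cultures, so p-values measure the spread between these libraries, which may be technical. Named genes are the 10 members, the up to 3 genes per list and direction with the lowest adjusted p, the 3 genes most correlated with each member over the tumors, marker genes and Rag1. Members and lists were chosen with earlier results of these data known. The TATAAA motif was added after the promoters were seen. A second table, with 6 columns that match no label, was not used. A motif and a marker gene are not reported here.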

Additional observations from a re-analysis of the deposited data

How the results depend on the processing

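Of 35 called member results, 734 of 769 alternative values kept the direction and the call, 35 lost the call and 0 turned. Of 55 uncalled ones, 1189 of 1237 stayed uncalled in the same direction, 11 passed the threshold and 37 changed sign. Called members between hosts over both days numbered 1, and 2 with DESeq2 (1 higher, 1 lower), 0 without the mean-dependent trend and 2 with the replicate block. At day 23 they numbered 0, and 1 with DESeq2. Leaving out each library gave 5 to 9 members for MC38 cells against skin, 0 to 2 between hosts over both days, 0 to 1 at day 23, 7 to 9 and 6 to 8 for wild-type tumors and tumors labelled RAG1-/- against MC38 cells, 8 to 9 for wild-type tumors against skin and 0 in the 3 comparisons of time.

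Same-numbered tumors deviated together with correlations of -0.217 to 0.194 (18 pairs), and 5 of 12 tumors correlated best with their own number, so the samples share only a number. The 3 pairs of RAG1-/- day 23 with wild-type day 46 had 0.105, 0.182 and 0.116, while no other pair of tumor groups had all 3 over 0.1. With the replicate block Il1b passed between hosts (adjusted p = 0.0224) and Il18bp lost its call between wild-type tumors and skin (0.0836).

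Small uncalled differences changed sign. At day 23 between hosts, Il33 came to 0.17 with edgeR and with DESeq2, and Il1rap to -0.0029 with upper-quartile scaling. For the difference of the time changes, Il18 came to 0.025 with total scaling. With each library left out, the host difference over both days ranged from -0.27 to 0.15 for Il1rn, -0.36 to 0.038 for Il1r2 and -0.44 to 0.20 for Il1rl1, and at day 23 from -0.70 to 0.33 for Il33, -0.28 to 0.53 for Il1r2 and -0.13 to 0.20 for Il1rap. Between days it ranged from -0.62 to 0.22 for Il1rn and -0.24 to 0.10 for Il1rap in wild-type tumors, and from -0.022 to 0.47 for Il18bp, -1.09 to 0.14 for Il1r1 and -0.23 to 0.041 for Il1r2 in tumors labelled RAG1-/-. For the difference of the time changes it ranged from -0.24 to 0.60 for Il1rn, -0.66 to 0.19 for Il18, -0.77 to 0.29 for Il33, -0.76 to 0.040 for Il1r2 and -1.05 to 0.23 for Il1rl1. MC38 against skin ranged from -0.14 to 0.20 for Il1rap. The cause was not tested.

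Over all genes, limma called 105 between hosts over both days and DESeq2 283, and 41 and 239 at day 23, where edgeR called 22. Of called genes, 33.5% were higher in MC38 cells than in skin, and 49.1% or 46.8% with upper-quartile or total scaling. For wild-type tumors the share was 65.5% against MC38 cells (50.2% with upper quartile) and 40.0% against skin (59.7% and 57.7%), and for tumors labelled RAG1-/- against MC38 cells 67.6% (55.3%). Members with 0 to 6 reads in MC38 cells have fitted changes that depend on the pseudocount, and Il1a in MC38 cells against skin came to -8.21 with 0.1 and -4.23 with 5.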
